A study of Danio rerio with 9 samples.

Results

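Cells of the zebrafish notochord sheath that carried both the col9a2 and the entpd5a reporter were compared with the cells that carried either reporter alone, to find genes whose level in the double-positive cells lay outside the levels of both other populations. The samples were 3 libraries of each population, 9 in all, from fish of strain EK at 13 days after fertilization. A gene was described as separated when its lowest double-positive library was above the highest of the 6 other libraries, or its highest double-positive library was below the lowest of the 6 others. Of 19039 genes tested, 1015 (5.33%) were separated above and 953 (5.01%) were separated below. The populations were sorted by fluorescence from sheath cells and named col9a2+, col9a2/entpd5a+ (double) and entpd5a+ by the labels. The series describes transgenic fish, whereas the genotype label of every sample reads wild type, and the reporter constructs are not given in the sources used here. Whether replicates are separate fish, pools or sorts is not stated by the labels. The p values therefore reflect the spread of these libraries, which may be technical.

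The notochord is the embryonic axial rod of vertebrates, and its sheath is an epithelium around a core of fluid-filled vacuolated cells that lays down a thick collagenous extracellular matrix. In bony fish the sheath is known to acquire mineral in ring-shaped domains, the chordacentra, which prefigure the vertebral bodies, while the domains between them keep a cartilage-like character. The reporter gene col9a2 encodes a chain of collagen IX, a cartilage collagen, and entpd5a encodes an ectonucleotidase that releases phosphate and is required for mineralization in zebrafish. The series title concerns how the segmented sheath bears on the patterning of the spine.

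Levels are given as CPM, read counts scaled to a common library size, always in the order of replicates 1, 2 and 3. Library totals lay between 39955994 and 81471212 counts. COL9A2, the sort gene, was at 811, 1578 and 1425 CPM in double-positive, 7734, 11555 and 9394 CPM in col9a2+ and 429, 73.0 and 64.7 CPM in entpd5a+ libraries. Its double-positive level lay between the other populations without overlap, and its log2 difference from the average of both was -0.08 ± 0.63 (edgeR quasi-likelihood test, adjusted p = 0.977), or 0.65 without entpd5a+ library 1. ENTPD5, the other sort gene, was at 10365, 18661 and 13079 CPM in double-positive, 253, 452 and 129 CPM in col9a2+ and 5676, 3953 and 3141 CPM in entpd5a+ libraries. Its double-positive libraries were the highest of all 9, and the separate ID entpd5b was at 13.8, 12.5 and 11.2 CPM in them. Col9a2+ library 3, double-positive library 3 and entpd5a+ libraries 2 and 3 were sequenced deepest and also had the highest hsp70l, a heat-shock chaperone gene, at 277, 366 and 20198 CPM in col9a2+, 909, 585 and 27145 CPM in double-positive and 776, 27023 and 17953 CPM in entpd5a+ cells. Double-positive library 1 stood apart in endothelial genes, with kdrl at 62.0, 0.338 and 1.39 CPM and cdh5 at 67.3, 0.0260 and 0.265 CPM over the double-positive libraries. The split by depth and hsp70l crosses the 3 populations, while the endothelial genes set 1 double-positive library apart from its own group. The part of either in any single difference was not tested.

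The contrast set the double-positive mean against the average, on the log2 scale, of the col9a2+ mean and the entpd5a+ mean. At an adjusted p under 0.05 over all genes, 594 genes (3.12%) were called higher and 371 (1.95%) were called lower in double-positive cells. Of these, 478 (2.51% of genes tested) were also separated above the other libraries and 307 (1.61%) were also separated below. Counts of called genes depended on single libraries: without double-positive library 2 there were 282 called higher and 131 called lower, and without col9a2+ library 1 there were 356 and 181. The calls in the lower direction also changed by more than 1.5 times, to 199 and 233 without col9a2+ libraries 2 and 3, to 211 without double-positive library 1 and to 235 without entpd5a+ library 2. The called and separated genes were 256 above and 128 below without double-positive library 2, and those below were 169, 182 and 200 without col9a2+ libraries 1, 2 and 3 and 200 without double-positive library 1. The 4 deeper libraries alone gave 0 calls by edgeR, with 2795 of 21349 genes at an unadjusted p under 0.05. The direction of a separated gene is fixed by its choice and says nothing of its stability.

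A mixture of 2 populations has levels between theirs. The double-positive mean CPM lay above both single-positive means in 572 of the 594 genes called higher and between them in 22, and it lay below both in 367 of the 371 called lower and between them in 4. Of the genes not called, 5616 lay above both means, 6204 between them and 6254 below both, so most of these lay outside too. A call against the average also favours genes outside both means, and this position is a description. The test of it is the call against each single-positive population in turn. By that rule 166 genes (0.872% of genes tested) were above both populations and 128 (0.672%) were below both. Among the 478 genes called and separated above, those 166 passed against both, 68 against col9a2+ cells alone, 202 against entpd5a+ cells alone and 42 against neither. Among the 307 below, the counts were 128, 79, 90 and 10. A gene called against the average and separated need therefore not be called against each population. The counts called above both fell by more than 1.5 times without col9a2+ library 1 (73), col9a2+ library 2 (82), col9a2+ library 3 (96), double-positive library 2 (62) or entpd5a+ library 2 (65). Those called below both fell to between 54 and 76 without the same libraries, and rose to 198 without double-positive library 3. Of all genes, 955 (5.02%) were called between entpd5a+ and col9a2+ cells, among them 93 of the 478 above and 38 of the 307 below. The 478 and 307 were chosen by a call on the same libraries, which favours genes of low spread. Their counts are therefore a description and no comparison with all genes.

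**Figure D1:**
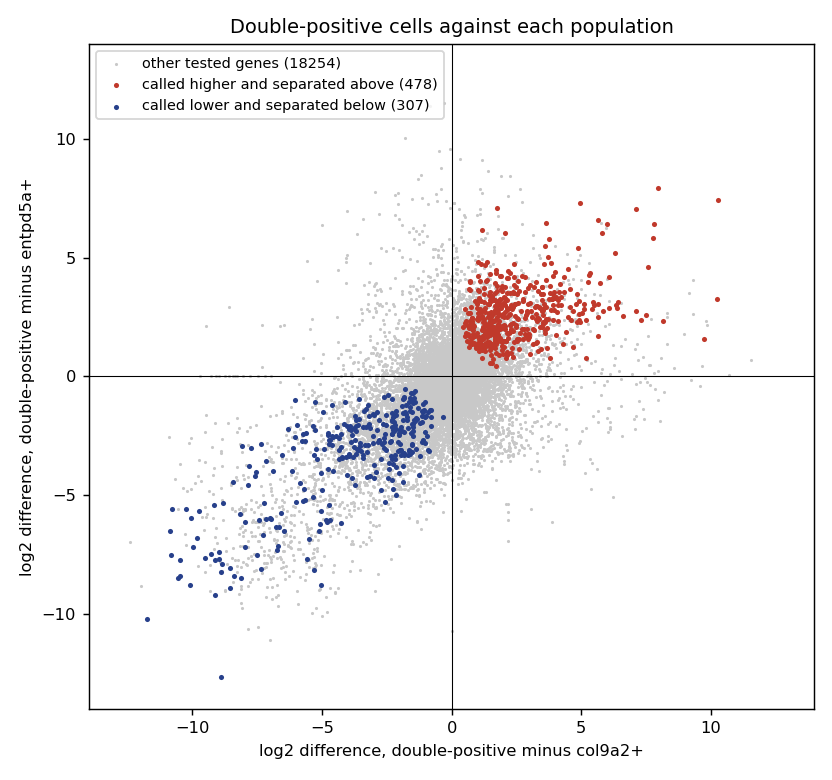
Each point is a gene of the 19039 tested, placed by its log2 difference between double-positive and col9a2+ cells (horizontal axis) and between double-positive and entpd5a+ cells (vertical axis); both axes share the double-positive libraries. The 478 genes called higher and separated above lie in the upper right part and the 307 called lower and separated below lie in the lower left, as the rule of separation requires.

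The share of counts taken by the separated genes follows from how they were chosen and is given as a description. The 478 genes above took 22.2%, 25.7% and 22.7% of the counts of the 3 double-positive libraries, between 4.44% and 5.36% in col9a2+ libraries and between 3.68% and 5.12% in entpd5a+ libraries. The 307 genes below took between 0.268% and 0.404% of the double-positive counts, between 2.28% and 2.87% of the col9a2+ counts and between 1.40% and 1.77% of the entpd5a+ counts. Of the 478, 441 had a mean of at least 10 CPM in double-positive cells. Of the 307, 231 had less than that, and 17 had no count in any double-positive library. The median ratio between the nearest libraries of the groups was 1.75 for the 478 genes above and 1.95 for the 307 genes below, where a group at 0 counts as the largest ratio. For separated genes that were not called the medians were 1.14 above and 1.29 below. At the edge of the rule stood TPD52, whose lowest double-positive library was at 29.3 CPM against 29.1 CPM in the highest other library. ENSDARG00000039577 was just outside, at 100.4 CPM against 100.6 CPM. In the other direction cldn7a was just inside (highest double-positive library 3.88 CPM, lowest other library 3.90 CPM) and PDGFRA just outside (22.49 and 22.47 CPM).

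Several of the genes farthest above both populations encode matrix proteins. The gene with the largest double-positive level among those named by rule was col8a1a, a chain of the short-chain collagen VIII that zebrafish need for a normal notochord. It was at 8504, 18050.0 and 19112 CPM in double-positive, 142, 676 and 309.8 CPM in col9a2+ and 443, 689 and 1076 CPM in entpd5a+ libraries. All double-positive libraries were above all others by a wide margin, with a log2 difference from the average of 4.85 ± 0.58 (edgeR quasi-likelihood test, adjusted p = 0.00212), 5.34 ± 0.79 from col9a2+ cells (adjusted p = 0.00761) and 4.37 ± 0.75 from entpd5a+ cells (adjusted p = 0.0103). The lysyl oxidase-like gene loxl5b, of the family that crosslinks collagen and elastin, was at 2748, 4813 and 3619.9 CPM in double-positive, 57.3, 160.0 and 68.5 CPM in col9a2+ and 115, 133 and 328 CPM in entpd5a+ libraries. Its groups did not overlap and its log2 difference was 4.78 ± 0.50 (adjusted p = 0.00129). optc, which encodes opticin, a small leucine-rich proteoglycan known from the vitreous of the eye, was at 45.5, 40.2 and 23.7 CPM in double-positive, 0.235, 0.199 and 0.0801 CPM in col9a2+ and 0, 0.578 and 1.34 CPM in entpd5a+ libraries. It was near absent from both single-positive populations, and its log2 difference was 6.79 ± 0.90 (adjusted p = 0.00348).

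Genes of the basement membrane, the sheet of laminin, nidogen and collagen IV on which epithelia rest, moved both ways. Of 64 tested, 10 rose and 6 fell, where 3.12% and 1.95% of all genes did. At an unadjusted p under 0.05 there were 13 higher and 18 lower, and DESeq2 called 11 and 16. The median log2 difference was -0.44 against -0.01 over all genes tested. FN1 (ENSDARG00000006526), fibronectin, the adhesive glycoprotein of provisional matrix, was at 8666, 6773 and 6301 CPM in double-positive, 931, 342 and 300.1 CPM in col9a2+ and 453, 597 and 832 CPM in entpd5a+ libraries. Each double-positive library exceeded every other library several times over, with a log2 difference of 3.66 ± 0.46 (edgeR, adjusted p = 0.00285). The second ID of that name, ENSDARG00000019815, was at 39.8, 46.5 and 49.0 CPM in double-positive cells and 88.9, 201 and 46.2 CPM in entpd5a+ cells, which overlapped. LAMB2, a laminin beta chain, was at 221, 263 and 378 CPM in double-positive, 14.98, 23.0 and 19.3 CPM in col9a2+ and 22.8, 30.8 and 25.1 CPM in entpd5a+ libraries. This gave a log2 difference of 3.68 ± 0.27 (adjusted p = 0.000743). LAMA5, a laminin alpha chain, was at 149.7, 149 and 126 CPM in double-positive, 39.6, 51.2 and 61.2 CPM in col9a2+ and 13.6, 13.8 and 8.42 CPM in entpd5a+ libraries. The double-positive libraries were highest for both laminins, with LAMA5 at a log2 difference of 2.53 ± 0.25 (adjusted p = 0.00114). NID1 (ENSDARG00000103129), nidogen, which links laminin to collagen IV, rose by 3.50 ± 0.33 on the log2 scale (adjusted p = 0.00114), from 22.9, 30.1 and 32.7 CPM in col9a2+ and 23.5, 33.2 and 30.4 CPM in entpd5a+ cells to 165, 362 and 450.2 CPM. Its second ID, ENSDARG00000068710, did not follow: it was highest in col9a2+ cells at 249.8, 456 and 526 CPM and at 111, 155 and 232 CPM in double-positive cells. SMOC1, a calcium-binding matricellular protein of basement membranes, rose by 2.74 ± 0.41 on the log2 scale (adjusted p = 0.00545). Called lower were, among others, emilin1b and NID2, whose calls were lost without double-positive library 1 (emilin1b) or 2 (NID2). The log2 difference of emilin1b was -5.34 ± 0.97, and -6.88 without double-positive library 2.

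Of 62 genes of collagen folding, crosslinking and secretion, 6 rose and 4 fell, where 3.12% and 1.95% of all genes did. Other measures had more members lower, but DESeq2 also called more genes lower (1609) than higher (946) over all 19039 genes. The median log2 difference was -0.405, and 4 genes were separated above and 11 below. At an unadjusted p under 0.05 there were 7 higher and 18 lower, and DESeq2 called 7 and 15. P3H2, a prolyl 3-hydroxylase that modifies basement membrane collagen, was at 65.5, 51.0 and 73.5 CPM in double-positive, 9.29, 7.65 and 9.22 CPM in col9a2+ and 13.5, 21.6 and 23.0 CPM in entpd5a+ libraries. Its groups did not overlap (log2 difference 2.28 ± 0.26, edgeR adjusted p = 0.00163). loxl2a, another lysyl oxidase-like gene, rose by 2.38 ± 0.32 on the log2 scale (adjusted p = 0.00355). CREB3L1, a membrane-bound transcription factor that drives secretory and collagen genes in mammalian bone, was at 39.8, 50.4 and 34.4 CPM against 184, 278 and 155 CPM in col9a2+ and 143, 145 and 166 CPM in entpd5a+ cells, a log2 difference of -2.09 ± 0.31 (adjusted p = 0.00498). Of 59 matrix proteases and inhibitors 5 rose and 1 fell, where 3.12% and 1.95% of all genes did, and 13 were called lower by DESeq2. HTRA1 (ENSDARG00000032831), a secreted serine protease that cleaves matrix and growth factors, was at 1361, 1538 and 1854 CPM in double-positive, 41.5, 59.6 and 37.8 CPM in col9a2+ and 161, 211 and 285 CPM in entpd5a+ libraries. Double-positive libraries were far above both populations, and entpd5a+ libraries were above col9a2+ libraries. Its log2 difference was 3.98 ± 0.33 (adjusted p = 0.000743). The second HTRA1 ID, ENSDARG00000014907, was not called and did not follow. It was at 16.4, 1.51 and 1.83 CPM in double-positive, 2.42, 4.22 and 14.6 CPM in col9a2+ and 62.3, 21.3 and 40.2 CPM in entpd5a+ libraries. MMP2, a gelatinase, was the one called lower, at 67.3, 27.6 and 66.3 CPM against 188, 153 and 174 CPM in col9a2+ and 739.9, 505 and 349.8 CPM in entpd5a+ cells (log2 difference -2.49 ± 0.42, adjusted p = 0.00949).

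**Figure D2:**
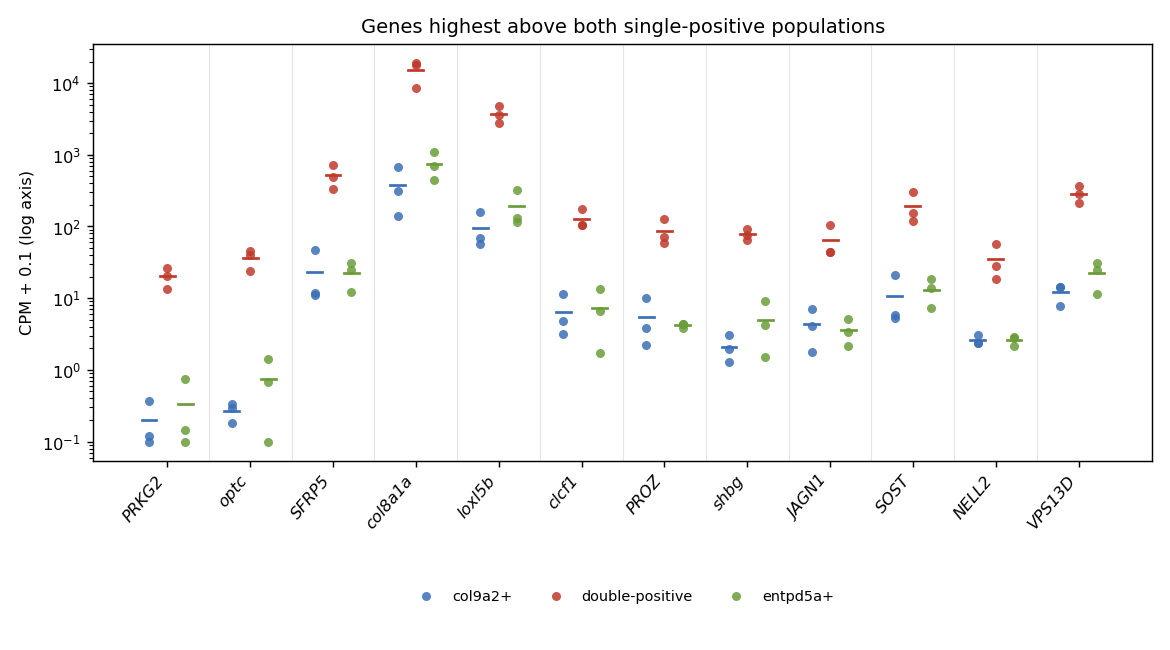
Levels (CPM plus 0.1, log axis) of the 12 genes farthest above both single-positive populations, in order of the smaller of the 2 log2 differences; points are libraries and bars are means over 3 libraries. In all 12 the double-positive libraries lie above every other library, from optc, at or near 0 CPM in the other libraries, to col8a1a, at up to 19113 CPM.

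The notochord and sheath list held the largest share of called genes of the 33 lists. Of 27 tested, 11 rose and 1 fell, where 3.12% and 1.95% of all genes did, with a median log2 difference of 1.68. By the call against each population in turn, 2 of the 27 were above both and 1 was below both. Over all genes the shares were 0.872% and 0.672%. The list was chosen with earlier results of these data known, and it includes col8a1a, loxl5b and the sort gene ENTPD5. The summed level of the list was 58972 to 91592 CPM in double-positive, 19653 to 27406 CPM in col9a2+ and 15172 to 22293 CPM in entpd5a+ libraries. The gene cmn encodes calymmin, a repetitive protein of the zebrafish notochord sheath. It was at 5052, 7707 and 7457 CPM in double-positive, 1600.2, 3561 and 2706 CPM in col9a2+ and 225, 154 and 335 CPM in entpd5a+ libraries. It was not among the 2 list members called above both populations. Its double-positive libraries were the highest and its entpd5a+ libraries the lowest, with a log2 difference of 3.09 ± 0.41 (edgeR, adjusted p = 0.00348). krt94, a keratin gene, was at 2623, 2475 and 2087 CPM in double-positive, 891, 940.4 and 787 CPM in col9a2+ and 133, 164 and 374 CPM in entpd5a+ libraries, the same order of populations (log2 difference 2.44 ± 0.38, adjusted p = 0.00656). Its difference from col9a2+ cells, 1.46 ± 0.46, was not called (adjusted p = 0.135). The T-box factor tbxta, which specifies the notochord, was not called: it was at 1388, 2159 and 4463 CPM in double-positive, 926, 1481 and 2146 CPM in col9a2+ and 115, 209 and 804 CPM in entpd5a+ libraries, and double-positive and col9a2+ libraries overlapped. The other brachyury ID, TBXT (ENSDARG00000039806), was called higher, at 97.8, 186 and 279 CPM in double-positive, 54.6, 118 and 152 CPM in col9a2+ and 9.77, 16.6 and 19.2 CPM in entpd5a+ libraries (log2 difference 2.21 ± 0.40, adjusted p = 0.0135). Its double-positive and col9a2+ libraries overlapped too, with a difference of 0.79 ± 0.49 that was not called (adjusted p = 0.5), and the call against the average was lost without double-positive library 2. CAV1, a caveolin gene that marks vacuolated cells, was at 439, 576 and 376 CPM in double-positive and 481, 673 and 481 CPM in col9a2+ libraries, which overlapped. The member that fell was rcn3, a calcium-binding protein of the endoplasmic reticulum, at 188, 126 and 118 CPM against 615, 489 and 418 CPM in col9a2+ and 364, 393 and 453 CPM in entpd5a+ cells (log2 difference -1.65 ± 0.32, adjusted p = 0.0175), a call lost without double-positive library 2 or 3.

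Genes of mineral and phosphate handling were called mostly higher. Of 52 genes of mineral, phosphate and ion handling 8 rose, among them the sort gene ENTPD5, and 3 fell, where 3.12% and 1.95% of all genes did. The median log2 difference of the 52 was 0.128. By the call against each population in turn, 3 were above both and 1 was below both, where 0.872% and 0.672% of all genes were. ENTPD5 itself had a log2 difference of 3.69 ± 0.48 from the average (edgeR, adjusted p = 0.00316), but its difference from entpd5a+ cells, 1.72 ± 0.58, was not called (adjusted p = 0.122). As a sort gene, its rise over the average, which includes col9a2+ cells, is tied to the sort and is no separate result. SLC20A1 (ENSDARG00000020114), a sodium-phosphate cotransporter, was at 862, 1574 and 2219 CPM in double-positive, 43.7, 97.0 and 168 CPM in col9a2+ and 101, 148 and 325 CPM in entpd5a+ libraries. Every double-positive library was above the highest other library, and its log2 difference was 3.47 ± 0.52 (adjusted p = 0.00565). Its second ID, ENSDARG00000010641, was at 254, 472 and 479 CPM in double-positive and 209, 331 and 293 CPM in col9a2+ libraries, which overlapped. enpp1, the enzyme that makes the mineralization inhibitor pyrophosphate outside cells, was at 924, 1379 and 1746 CPM in double-positive, 138, 225 and 202 CPM in col9a2+ and 219, 518 and 427 CPM in entpd5a+ libraries. It too was separated above, at a log2 difference of 2.32 ± 0.37 (adjusted p = 0.007). mgp, matrix Gla protein, another mineralization inhibitor, was at 1027, 1544 and 504 CPM in double-positive, 287, 207 and 80.0 CPM in col9a2+ and 108, 60.2 and 104 CPM in entpd5a+ libraries. It rose by 2.96 ± 0.47 on the log2 scale (adjusted p = 0.00699), with its lowest double-positive library, the third, still above the rest. ANXA6, a calcium-dependent membrane-binding protein, rose by 2.39 ± 0.35 on the log2 scale (adjusted p = 0.00514). ENPP6, a choline phosphodiesterase, was nearly absent, at 0, 0.156 and 0.147 CPM in double-positive cells, 3.36, 1.51 and 5.97 CPM in col9a2+ and 12.04, 6.58 and 9.50 CPM in entpd5a+ cells (log2 difference -5.81 ± 1.03, adjusted p = 0.012).

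Bone genes were called mostly lower: of 42 tested 1 rose and 6 fell, where 3.12% and 1.95% of all genes did. The median log2 difference was -0.91. The summed bone level was 15168 to 29039.6 CPM in double-positive and 20270.4 to 22750.4 CPM in col9a2+ libraries, against 76879 to 134837 CPM in entpd5a+ libraries. The one that rose was SOST, sclerostin, the Wnt antagonist that osteocytes secrete in mammals. It was at 119.9, 299 and 153 CPM in double-positive, 20.9, 5.71 and 5.16 CPM in col9a2+ and 18.2, 7.13 and 13.7 CPM in entpd5a+ libraries. Its double-positive libraries were the highest without overlap, and its log2 difference was 4.02 ± 0.52 (edgeR, adjusted p = 0.00311). COL12A1 (ENSDARG00000019601), a fibril-associated collagen, was at 7.47, 8.89 and 16.7 CPM against 133, 85.3 and 76.0 CPM in col9a2+ and 78.0, 39.7 and 30.8 CPM in entpd5a+ cells (log2 difference -2.66 ± 0.44, adjusted p = 0.00908), a call lost without double-positive library 2.

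Of 46 cartilage genes tested 7 fell and 5 rose, where 1.95% and 3.12% of all genes did. The median log2 difference of the 46 was -0.77. Their summed level was 37826 to 40857 CPM in double-positive libraries and higher in every other library (52070.1 to 134805 CPM). COL2A1 (ENSDARG00000011407), a chain of cartilage collagen II, was at 28.3, 5.09 and 45.2 CPM in double-positive, 544, 418 and 495 CPM in col9a2+ and 326, 312 and 179 CPM in entpd5a+ libraries. All double-positive libraries were below all others, with a log2 difference of -3.79 ± 0.67 (edgeR, adjusted p = 0.0116), which was -4.45 without double-positive library 3. The second COL2A1 ID, ENSDARG00000069093, carried far more counts and lay between the other populations, at 1706, 3318 and 5141 CPM in double-positive, 28713, 35299 and 50499.8 CPM in col9a2+ and 1143, 188 and 82.2 CPM in entpd5a+ cells. MATN4, a matrilin that links cartilage fibrils, was at 12.8, 6.71 and 25.5 CPM in double-positive, 215, 184 and 238 CPM in col9a2+ and 177, 166 and 132 CPM in entpd5a+ libraries. It was separated below, at a log2 difference of -3.61 ± 0.46 (adjusted p = 0.00311), and -4.23 without double-positive library 3. FMOD (ENSDARG00000044895), fibromodulin, a small proteoglycan that binds collagen fibrils, fell with a log2 difference of -3.12 ± 0.49 (adjusted p = 0.00699). SOX6, a transcription factor of cartilage differentiation, was at 42.2, 33.6 and 53.2 CPM against 134, 166 and 134 CPM in col9a2+ and 105, 179 and 98.3 CPM in entpd5a+ cells (log2 difference -1.66 ± 0.31, adjusted p = 0.0144), a call lost without double-positive library 1 or 2. In the other direction snorc, a small transmembrane proteoglycan of cartilage, was at 3389, 4959.9 and 2423 CPM in double-positive, 907, 906 and 448 CPM in col9a2+ and 196, 133 and 199 CPM in entpd5a+ libraries. Its double-positive libraries were the highest and its entpd5a+ libraries the lowest, and its log2 difference was 3.30 ± 0.39 (adjusted p = 0.00201).

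Secreted antagonists of growth factors were among the genes above. BMP and TGF-beta ligands, relatives that signal through Smad proteins, pattern bone and cartilage, and antagonists such as noggin bind them outside the cell. Of 79 genes of these pathways 14 rose and 3 fell, where 3.12% and 1.95% of all genes did. Of the 79, 5 were called above both populations and 2 below both, where 0.872% and 0.672% of all genes were. At an unadjusted p under 0.05 there were 25 higher and 13 lower, and DESeq2 called 17 and 10. Among ligands, BMP3, an atypical member that counteracts other BMPs in mammals, was at 1434, 2381 and 2135 CPM in double-positive, 28.2, 98.7 and 38.8 CPM in col9a2+ and 289, 518 and 342 CPM in entpd5a+ libraries. Its double-positive libraries were above the entpd5a+ libraries and those above the col9a2+ libraries, without overlap, with a log2 difference from the average of 3.77 ± 0.44 (edgeR, adjusted p = 0.00209). Ligand genes moved both ways. gdf6b (log2 difference 5.77, adjusted p = 0.0327) and tgfb1a (1.76, adjusted p = 0.019) were called higher too. Taken against each population in turn, gdf6b was called against neither and tgfb1a against col9a2+ cells alone. BMP5 (-2.41, adjusted p = 0.0152) and gdf6a (-4.55, adjusted p = 0.0195) were called lower. Double-positive and col9a2+ libraries overlapped for BMP5. The calls of gdf6b, tgfb1a, BMP5 and gdf6a were each lost without double-positive library 2, among others. Among antagonists, nog2, a noggin, was at 394, 510.3 and 567 CPM in double-positive, 16.8, 29.1 and 6.98 CPM in col9a2+ and 51.0, 42.0 and 82.9 CPM in entpd5a+ libraries. It was separated above, with a log2 difference of 3.93 ± 0.43 (adjusted p = 0.00159). FSTL1 (ENSDARG00000015559), a follistatin-like secreted protein, was at 169, 203 and 129 CPM in double-positive, 2.80, 1.96 and 1.32 CPM in col9a2+ and 9.03, 16.9 and 41.7 CPM in entpd5a+ libraries. This gave a log2 difference of 4.63 ± 0.46 (adjusted p = 0.00114). Its second ID, ENSDARG00000039576, was not called, at 362, 496 and 438 CPM in double-positive, 217, 316 and 279 CPM in col9a2+ and 746, 669.5 and 401 CPM in entpd5a+ libraries. Double-positive libraries of this ID were above the col9a2+ libraries and overlapped the entpd5a+ libraries.

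The name FST, follistatin, which traps activin and BMPs, belongs to IDs that moved in opposite directions. ENSDARG00000052846 was at 172, 334 and 133 CPM in double-positive, 22.2, 3.25 and 13.2 CPM in col9a2+ and 23.6, 19.5 and 19.7 CPM in entpd5a+ libraries. It rose by 3.70 ± 0.50 on the log2 scale (edgeR, adjusted p = 0.0038). ENSDARG00000057992 was at 0, 0.884 and 0.958 CPM in double-positive, 18.1, 6.55 and 28.8 CPM in col9a2+ and 55.0, 28.6 and 40.7 CPM in entpd5a+ libraries, a log2 difference of -5.45 ± 1.09 (adjusted p = 0.0195) whose call was lost without double-positive library 2. Both were separated from all 6 other libraries, the first above and the second below. Among receptors TGFBR3, betaglycan, a co-receptor that presents TGF-beta, was at 131, 140.2 and 202 CPM in double-positive, 16.7, 22.7 and 30.4 CPM in col9a2+ and 12.4, 22.2 and 15.5 CPM in entpd5a+ libraries. It rose by 3.001 ± 0.29 on the log2 scale (adjusted p = 0.00114). Among targets ID4, an inhibitor of basic helix-loop-helix factors that BMPs induce, was at 83.6, 98.5 and 86.3 CPM in double-positive, 46.5, 73.1 and 46.0 CPM in col9a2+ and 3.02, 3.73 and 9.92 CPM in entpd5a+ libraries (log2 difference 2.35 ± 0.37, adjusted p = 0.00682). Its difference from col9a2+ cells, 0.70 ± 0.44, was not called (adjusted p = 0.515).

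Wnt proteins signal through Frizzled receptors and, in the canonical branch, through TCF and LEF transcription factors. Of 66 Wnt pathway genes 13 rose and 6 fell, where 3.12% and 1.95% of all genes did. At an unadjusted p under 0.05 there were 16 higher and 15 lower, and DESeq2 called 15 and 17. The median log2 difference of the 66 was -0.72. Their summed level was 4800.2 to 7800.5 CPM in double-positive libraries and 1704 to 4135 CPM in the others. In such a sum abundant members, such as FZD7 below, weigh most, and it does not describe the list as a whole. Among extracellular antagonists, SFRP5, a secreted Frizzled-related protein, was at 491, 729 and 332 CPM in double-positive, 11.6, 47.1 and 10.9 CPM in col9a2+ and 31.4, 11.96 and 24.6 CPM in entpd5a+ libraries. dkk1a, a Dickkopf antagonist of the LRP co-receptors, was at 44.7, 78.3 and 64.5 CPM in double-positive, 1.78, 2.28 and 1.13 CPM in col9a2+ and 37.1, 38.5 and 34.0 CPM in entpd5a+ libraries. SFRP5 was low in both single-positive populations, whereas dkk1a was low in col9a2+ cells alone. Their log2 differences from the average were 4.50 ± 0.54 (edgeR, adjusted p = 0.00226) and 2.98 ± 0.28 (adjusted p = 0.00114). For dkk1a the difference from entpd5a+ cells was 0.77 ± 0.34 and not called (adjusted p = 0.228). Among receptors, FZD7 (ENSDARG00000027589) was at 1067, 2181 and 1687 CPM in double-positive, 66.9, 201 and 100.02 CPM in col9a2+ and 132, 151 and 229 CPM in entpd5a+ libraries. This gave a log2 difference of 3.51 ± 0.42 (adjusted p = 0.00226). The receptor genes FZD5 (log2 difference 2.85 ± 0.40, adjusted p = 0.00406), FZD8 (ENSDARG00000045444) (log2 difference 2.26 ± 0.37, adjusted p = 0.00849) and ROR2 (log2 difference 2.23 ± 0.36, adjusted p = 0.00757), a receptor of non-canonical Wnt signals, were separated above too. Of these, FZD8 was not called against entpd5a+ cells (edgeR, adjusted p = 0.0729). WIF1, another secreted antagonist, was called lower (log2 difference -2.07 ± 0.47, adjusted p = 0.0326). That call ended when any of 5 libraries was left out, and the difference was -2.71 without double-positive library 1. The receptor gene ROR1 (log2 difference -3.75, adjusted p = 0.0402) and the antagonist gene frzb (-3.16, adjusted p = 0.0341) were called lower too. Leaving out 1 library ended the call of ROR1 for 8 of the 9 libraries and that of frzb for 5. Without double-positive library 1 their differences were -5.91 and -4.33. Among the nuclear factors, TCF7L2 was at 391.7, 462 and 289 CPM in double-positive, 30.9, 48.7 and 23.4 CPM in col9a2+ and 51.9, 33.4 and 38.2 CPM in entpd5a+ libraries. LEF1 was at 4.76, 2.21 and 2.11 CPM in double-positive, 13.5, 17.0 and 12.9 CPM in col9a2+ and 38.4, 43.8 and 36.2 CPM in entpd5a+ libraries. TCF7L2 was highest and LEF1 lowest in double-positive cells, both without overlap, with log2 differences of 3.34 ± 0.31 (adjusted p = 0.00114) and -2.98 ± 0.38 (adjusted p = 0.00292).

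Hedgehog ligands are made by the notochord and act on neighbouring tissues. Of 29 hedgehog genes 7 rose and 1 fell, where 3.12% and 1.95% of all genes did. Of the 29, 1 was called above both populations, where 0.872% of all genes were, and their median log2 difference was 0.01. At an unadjusted p under 0.05 there were 9 higher and 6 lower, and DESeq2 called 8 and 5. ihhb, an Indian hedgehog, was at 678, 1181 and 1215 CPM in double-positive, 121, 241 and 185 CPM in col9a2+ and 56.9, 63.5 and 106 CPM in entpd5a+ libraries. It was separated above, at a log2 difference of 3.13 ± 0.36 (edgeR, adjusted p = 0.00187). Both IDs named SHH rose: ENSDARG00000068567 was at 1100.0, 1544 and 1239 CPM in double-positive, 653, 989 and 731 CPM in col9a2+ and 61.2, 56.7 and 128 CPM in entpd5a+ libraries (log2 difference 2.35 ± 0.36, adjusted p = 0.00572), and ENSDARG00000038867 at 423, 861 and 536 CPM in double-positive, 256, 377 and 186 CPM in col9a2+ and 22.6, 12.1 and 34.6 CPM in entpd5a+ cells (log2 difference 2.93 ± 0.40, adjusted p = 0.00381). For both IDs the double-positive libraries were highest, col9a2+ libraries next and entpd5a+ libraries lowest, without overlap. The difference from col9a2+ cells was not called for either, at 0.71 ± 0.43 (adjusted p = 0.484) and 1.15 ± 0.48 (adjusted p = 0.268). SCUBE3, of a family that helps release hedgehog ligands, rose by 1.75 ± 0.30 on the log2 scale (adjusted p = 0.00985). The one called lower was HHIP, a hedgehog-binding antagonist (log2 difference -2.93 ± 0.70, adjusted p = 0.0422). That call ended when any of 6 libraries was left out, and the difference was -3.71 without double-positive library 3.

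In the somites Notch signalling and its Mesp and Ripply targets set segment borders. Of 48 Notch and segmentation genes 4 were called higher and 0 lower by edgeR, where 3.12% and 1.95% of all genes were. At an unadjusted p under 0.05 there were 4 lower, and DESeq2 called 5 lower, where it called 1609 of all 19039 genes lower. mespbb, a basic helix-loop-helix factor, was at 825, 770.0 and 1002 CPM in double-positive, 4.75, 13.8 and 7.93 CPM in col9a2+ and 23.5, 58.6 and 361 CPM in entpd5a+ libraries. All double-positive libraries were highest, but entpd5a+ library 3 stood well above the other entpd5a+ libraries. The log2 difference from the average was 4.58 ± 0.73 (edgeR, adjusted p = 0.00706) and 5.50 without entpd5a+ library 3, and that from entpd5a+ cells, 2.55 ± 0.88, was not called (adjusted p = 0.13). The call of mespba (log2 difference 6.19, adjusted p = 0.0433) ended whichever library was left out. That of ripply1 (2.95, adjusted p = 0.0177) ended without double-positive library 2 or 3. In the retinoic acid pathway, whose ligand is made from retinol and broken down locally, 5 of 42 genes rose and 3 fell. Over all genes the shares were 3.12% and 1.95%. DHRS3 (ENSDARG00000044982), a retinaldehyde reductase that turns the precursor back into retinol, was at 1044, 1863 and 1022 CPM in double-positive, 106, 204 and 77.6 CPM in col9a2+ and 68.9, 36.1 and 221 CPM in entpd5a+ libraries. It rose by 3.47 ± 0.56 on the log2 scale (adjusted p = 0.00765). Its second ID, ENSDARG00000044803, was highest in entpd5a+ cells, at 76.4, 119.8 and 443 CPM against 21.3, 4.52 and 13.2 CPM in double-positive cells. lratb.2, a retinol-esterifying acyltransferase, was at 187, 165 and 135 CPM in double-positive, 0.385, 1.84 and 0.892 CPM in col9a2+ and 8.71, 11.3 and 74.5 CPM in entpd5a+ libraries (log2 difference 4.83 ± 0.69, adjusted p = 0.00456, and 5.66 without entpd5a+ library 3). STRA6, the retinol uptake receptor, was at 0.157, 1.40 and 2.06 CPM in double-positive, 106, 123 and 65.2 CPM in col9a2+ and 8.78, 3.22 and 4.79 CPM in entpd5a+ libraries. It was low in double-positive and entpd5a+ cells, at a log2 difference of -4.27 ± 0.76 (adjusted p = 0.0125), a call lost without double-positive library 2, and -4.91 without double-positive library 3. Of 38 FGF genes 1 rose, FGFR3, and 3 fell (fgfrl1b, fgfbp2b and SPRY2), where 3.12% and 1.95% of all genes did. Leaving out 1 library ended the call of SPRY2 for 8 of the 9 libraries (all but col9a2+ library 3), that of fgfrl1b for 7 (all but double-positive library 3 and entpd5a+ library 3) and that of fgfbp2b for double-positive libraries 1 and 2. FGFR3, the receptor that restrains cartilage growth in mammals, was at 1244, 1730.2 and 1773 CPM in double-positive, 452, 581 and 435 CPM in col9a2+ and 385, 659 and 535 CPM in entpd5a+ cells (log2 difference 1.64 ± 0.31, adjusted p = 0.0164), a call lost without col9a2+ library 1 or double-positive library 2.

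**Figure D3:**
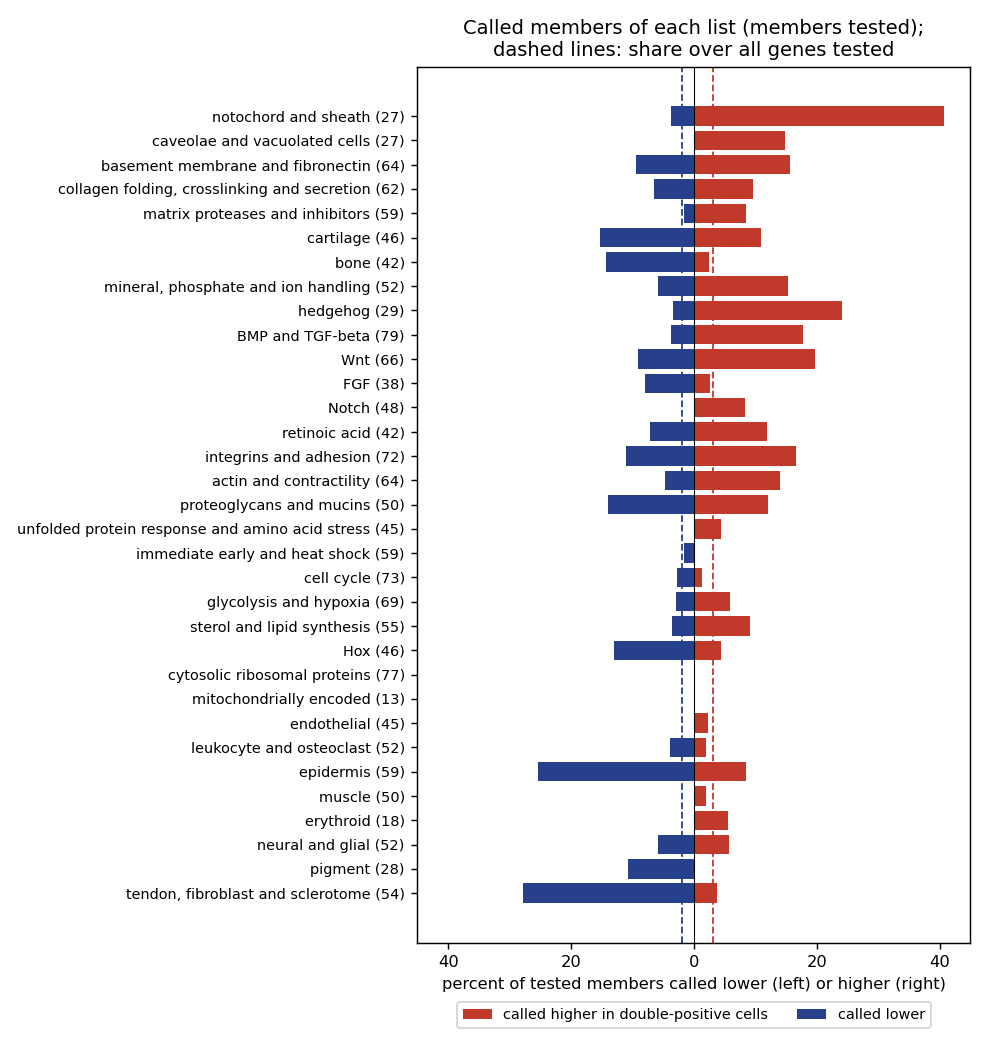
Share of the tested members of each of the 33 gene lists that were called lower (left) or higher (right) in double-positive cells; dashed lines give the shares over all genes tested, 1.95% and 3.12%. The notochord and sheath list has 11 of 27 members called higher, and the tendon, fibroblast and sclerotome list has 15 of 54 called lower.

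Of 72 integrin and adhesion genes 12 rose and 8 fell, and of 64 actin and contractility genes 9 rose and 3 fell, where 3.12% and 1.95% of all genes did. Whether either list differs from other genes was not tested. GPC6 (ENSDARG00000103156), a glypican, which is a membrane-anchored heparan sulfate proteoglycan, was at 130.1, 310.4 and 210.2 CPM in double-positive, 3.40, 9.26 and 2.196 CPM in col9a2+ and 20.4, 25.9 and 27.8 CPM in entpd5a+ libraries. It was separated above, at a log2 difference of 4.295 ± 0.45 (edgeR, adjusted p = 0.00129). GPC1, another glypican, went the other way, at 18.7, 4.39 and 11.6 CPM against 65.9, 74.5 and 71.7 CPM in col9a2+ and 77.8, 120.1 and 81.1 CPM in entpd5a+ cells (log2 difference -2.81 ± 0.45, adjusted p = 0.00797). itga6b, the alpha chain of a laminin-binding integrin, and col17a1b, a transmembrane collagen of hemidesmosomes, were both separated above. col17a1b was at 188, 81.8 and 142 CPM in double-positive, 3.40, 3.82 and 6.24 CPM in col9a2+ and 5.31, 22.8 and 17.1 CPM in entpd5a+ libraries. This gave a log2 difference of 4.06 ± 0.45 (adjusted p = 0.00163). itga6b was at 327, 449 and 634 CPM in double-positive, 74.1, 174 and 178 CPM in col9a2+ and 38.8, 77.2 and 98.4 CPM in entpd5a+ libraries (log2 difference 2.22 ± 0.40, adjusted p = 0.0122). PXN (ENSDARG00000088590), paxillin, an adaptor of focal adhesions, rose by 2.09 ± 0.32 on the log2 scale (adjusted p = 0.00613). Among contractile genes, tpm4a, a tropomyosin, was at 643, 852 and 712 CPM in double-positive, 138, 202 and 118 CPM in col9a2+ and 218, 141 and 247 CPM in entpd5a+ libraries (log2 difference 2.07 ± 0.31, adjusted p = 0.00521), and PALLD, palladin, an actin-bundling scaffold, at 324, 263 and 169 CPM in double-positive, 75.6, 27.4 and 24.9 CPM in col9a2+ and 52.1, 33.6 and 54.0 CPM in entpd5a+ libraries (log2 difference 2.50 ± 0.39, adjusted p = 0.00682). Their groups did not overlap.

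Several genes farthest above both populations belong to none of the lists described so far. shbg, sex hormone-binding globulin, was at 63.9, 91.3 and 76.7 CPM in double-positive, 1.18, 2.95 and 1.89 CPM in col9a2+ and 1.42, 4.17 and 8.997 CPM in entpd5a+ libraries. clcf1, a cytokine of the interleukin-6 family, was at 103, 106 and 177 CPM in double-positive, 3.02, 4.69 and 11.2 CPM in col9a2+ and 1.60, 6.46 and 13.3 CPM in entpd5a+ libraries. PROZ, protein Z, a vitamin K-dependent plasma protein, was at 59.3, 126 and 70.27 CPM in double-positive, 2.12, 10.1 and 3.80 CPM in col9a2+ and 4.28, 3.79 and 4.25 CPM in entpd5a+ libraries. All 3 were low in both single-positive populations, and their log2 differences were 4.63 ± 0.51 (edgeR, adjusted p = 0.00163), 4.26 ± 0.59 (adjusted p = 0.00406) and 4.19 ± 0.46 (adjusted p = 0.00159). VPS13D, which encodes a lipid transfer protein of organelle contacts, was at 287, 210.2 and 366 CPM in double-positive, 14.4, 14.4 and 7.65 CPM in col9a2+ and 11.5, 24.9 and 31.1 CPM in entpd5a+ libraries (log2 difference 4.12 ± 0.37, adjusted p = 0.00114). NELL2 (ENSDARG00000062797), a secreted protein with EGF-like repeats, was at 18.7, 27.99 and 57.6 CPM in double-positive, 2.25, 2.26 and 2.96 CPM in col9a2+ and 2.79, 2.03 and 2.70 CPM in entpd5a+ libraries (log2 difference 3.80 ± 0.37, adjusted p = 0.00114). For both genes the single-positive libraries lay close together. PRKG2, a cyclic GMP-dependent kinase that promotes growth plate maturation in mammals, was at 13.5, 26.5 and 20.6 CPM in double-positive, 0.0214, 0.273 and 0 CPM in col9a2+ and 0, 0.0462 and 0.652 CPM in entpd5a+ libraries. It was nearly unread outside double-positive cells (log2 difference 7.11 ± 1.25, adjusted p = 0.0117, and 8.68 without col9a2+ library 2 and 8.60 without entpd5a+ library 3). JAGN1 (ENSDARG00000041071), an endoplasmic reticulum protein, was at 43.6, 106 and 43.4 CPM in double-positive, 4.02, 6.98 and 1.69 CPM in col9a2+ and 5.09, 2.02 and 3.26 CPM in entpd5a+ libraries (log2 difference 4.07 ± 0.49, adjusted p = 0.00236), while its second ID, ENSDARG00000014995, overlapped between populations at 56.5, 88.8 and 41.3 CPM in double-positive and 116, 98.6 and 49.7 CPM in col9a2+ cells. The amino acid transporter pair slc3a2a, the heavy chain, and SLC7A5, its light chain, rose together. slc3a2a was at 1031, 1769 and 834 CPM in double-positive, 165, 309 and 149 CPM in col9a2+ and 73.7, 39.2 and 114 CPM in entpd5a+ libraries (log2 difference 3.27 ± 0.43, adjusted p = 0.00331) and SLC7A5 at 50.5, 175 and 90.6 CPM in double-positive, 9.52, 29.6 and 22.1 CPM in col9a2+ and 7.001, 6.44 and 14.2 CPM in entpd5a+ libraries (log2 difference 2.94 ± 0.46, adjusted p = 0.00682).

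The genes farthest below both populations included channels, enzymes and junction proteins. AQP3 (ENSDARG00000003808), a water and glycerol channel, was at 15.5, 15.4 and 23.9 CPM in double-positive, 179, 288 and 116 CPM in col9a2+ and 271, 135 and 179.7 CPM in entpd5a+ libraries. The double-positive libraries were about alike and far below the rest, with log2 differences of -3.41 ± 0.46 from col9a2+ cells (edgeR, adjusted p = 0.00566) and -3.42 ± 0.46 from entpd5a+ cells (adjusted p = 0.00398). AOC3, a cell-surface amine oxidase, was at 39.3, 23.0 and 57.0 CPM in double-positive, 245, 315 and 278 CPM in col9a2+ and 338, 212 and 246 CPM in entpd5a+ libraries, and its log2 difference was -2.77 ± 0.38 (adjusted p = 0.00398). VIT, vitrin, an extracellular matrix protein with von Willebrand factor A domains, was at 4.27, 2.24 and 8.003 CPM in double-positive, 59.7, 37.2 and 60.3 CPM in col9a2+ and 43.3, 63.4 and 37.7 CPM in entpd5a+ libraries (log2 difference -3.37 ± 0.47, adjusted p = 0.00406). For AOC3 and VIT the 2 single-positive populations overlapped each other and the double-positive libraries lay below both. ANGPTL1, a secreted angiopoietin-like protein, was at 1.16, 0.858 and 4.2004 CPM in double-positive, 30.1, 20.9 and 30.5 CPM in col9a2+ and 23.1, 20.3 and 17.5 CPM in entpd5a+ libraries (log2 difference -3.49 ± 0.57, adjusted p = 0.00811, and -4.53 without double-positive library 3). GPT (ENSDARG00000019541), alanine aminotransferase, was at 8.07, 2.50 and 10.6 CPM in double-positive, 56.8, 52.4 and 43.1 CPM in col9a2+ and 51.9, 38.0 and 54.1 CPM in entpd5a+ libraries (log2 difference -2.80 ± 0.46, adjusted p = 0.0083).

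**Figure D4:**
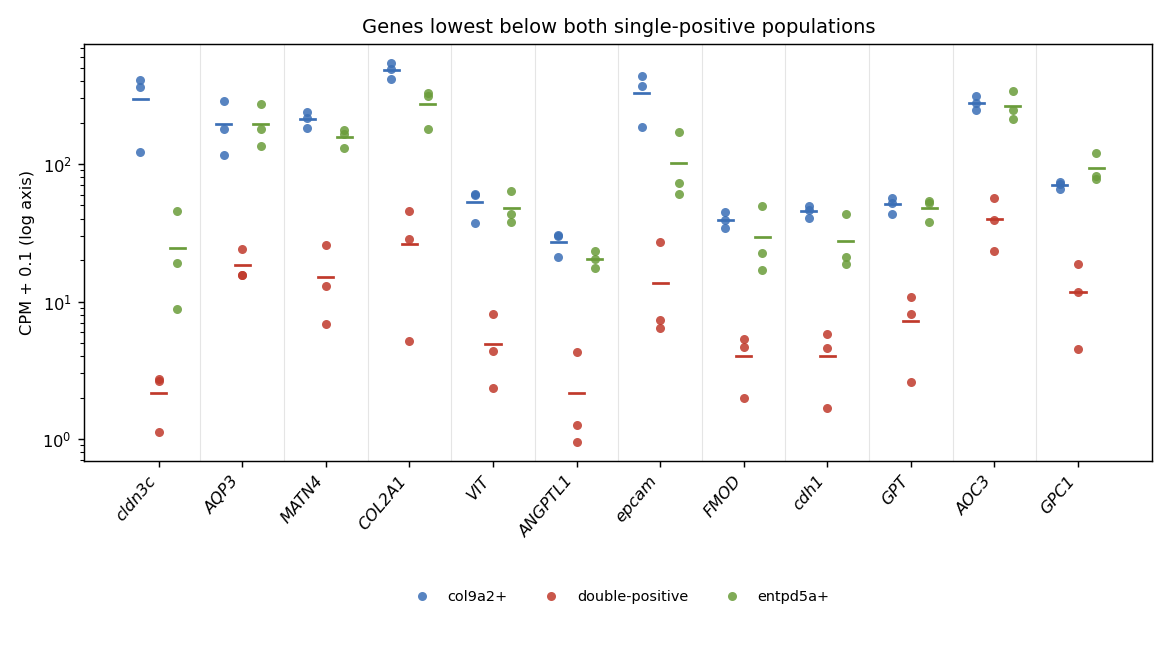
Levels (CPM plus 0.1, log axis) of the 12 genes farthest below both single-positive populations, in order of the smaller of the 2 log2 differences; points are libraries and bars are means over 3 libraries. In all 12 every double-positive library lies below every other library; the COL2A1 shown is ENSDARG00000011407 and not the more abundant ID of that name.

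Among the lists, epidermis and connective tissue had the most members called lower. Of 59 epidermal genes 15 fell and 5 rose, where 1.95% and 3.12% of all genes did, with a median log2 difference of -2.38. cldn3c, a claudin of tight junctions, was at 1.03, 2.55 and 2.65 CPM in double-positive, 411, 362 and 123 CPM in col9a2+ and 45.2, 19.1 and 8.71 CPM in entpd5a+ libraries. cdh1, E-cadherin, was at 1.59, 4.50 and 5.69 CPM in double-positive, 40.7, 46.4 and 49.3 CPM in col9a2+ and 18.8, 21.1 and 43.1 CPM in entpd5a+ libraries. epcam, an epithelial adhesion protein, was at 7.18, 6.37 and 27.1 CPM in double-positive, 439, 369.6 and 185 CPM in col9a2+ and 73.2, 60.8 and 172 CPM in entpd5a+ libraries. The double-positive libraries were lowest for all 3 genes, with log2 differences of -5.36 ± 0.75 (edgeR, adjusted p = 0.00414), -3.17 ± 0.50 (adjusted p = 0.00682) and -3.76 ± 0.67 (adjusted p = 0.0125). The call of epcam was lost without double-positive library 1 or 2, and its difference was -4.76 without double-positive library 3. The epidermal members that rose included the hemidesmosome genes col17a1b and itga6b and the plakophilin pkp3a (log2 difference 2.202 ± 0.37, adjusted p = 0.00935). The summed level of the epidermal list did not follow the count, since it was 15799 to 20168 CPM in double-positive, 17804 to 20122 CPM in col9a2+ and 6599 to 15429 CPM in entpd5a+ libraries. Keratins of the list are abundant: krt4 was at 5643, 7849 and 6966 CPM in double-positive and 2187, 2319 and 3119.6 CPM in col9a2+ cells. TP63, the defining epidermal factor, was at 0.716, 1.04 and 12.2 CPM in double-positive, 8.24, 7.82 and 33.0 CPM in col9a2+ and 7.54, 35.6 and 27.4 CPM in entpd5a+ libraries. The part that epidermal cells in any population play in these differences was not tested. In sorted bulk samples, fewer cells of a type and less RNA per cell cannot be told apart.

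Of 54 tendon, fibroblast and sclerotome genes 15 fell and 2 rose, where 1.95% and 3.12% of all genes did. The median log2 difference was -1.78. Both IDs of PRRX1, a homeobox factor of connective tissue, were separated below. ENSDARG00000042027 was at 1.61, 1.38 and 2.05 CPM in double-positive, 38.8, 19.2 and 28.3 CPM in col9a2+ and 20.8, 14.1 and 17.6 CPM in entpd5a+ libraries (log2 difference -3.74 ± 0.38, edgeR adjusted p = 0.00123), and ENSDARG00000033971 at 6.71, 3.12 and 9.42 CPM against 39.7, 27.2 and 21.6 CPM in col9a2+ and 89.4, 47.9 and 77.8 CPM in entpd5a+ cells (log2 difference -2.84 ± 0.44, adjusted p = 0.00665). COL6A2, a collagen VI chain, was at 12.2, 3.72 and 8.65 CPM in double-positive, 41.0, 21.97 and 46.8 CPM in col9a2+ and 149, 124 and 77.2 CPM in entpd5a+ libraries. Its double-positive libraries were lowest and its entpd5a+ libraries highest, at a log2 difference of -2.99 ± 0.48 (adjusted p = 0.00714). The summed level of the list was 19123 to 27182 CPM in double-positive, 21312 to 24097 CPM in col9a2+ and 56213 to 101689 CPM in entpd5a+ libraries. TNMD, a tendon marker, was at 124, 43.1 and 127 CPM in double-positive, 72.0, 39.5 and 152 CPM in col9a2+ and 792, 1145 and 535 CPM in entpd5a+ libraries, and its double-positive level overlapped that of col9a2+ cells. The part of such cells in the differences was not tested.

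**Figure D5:**
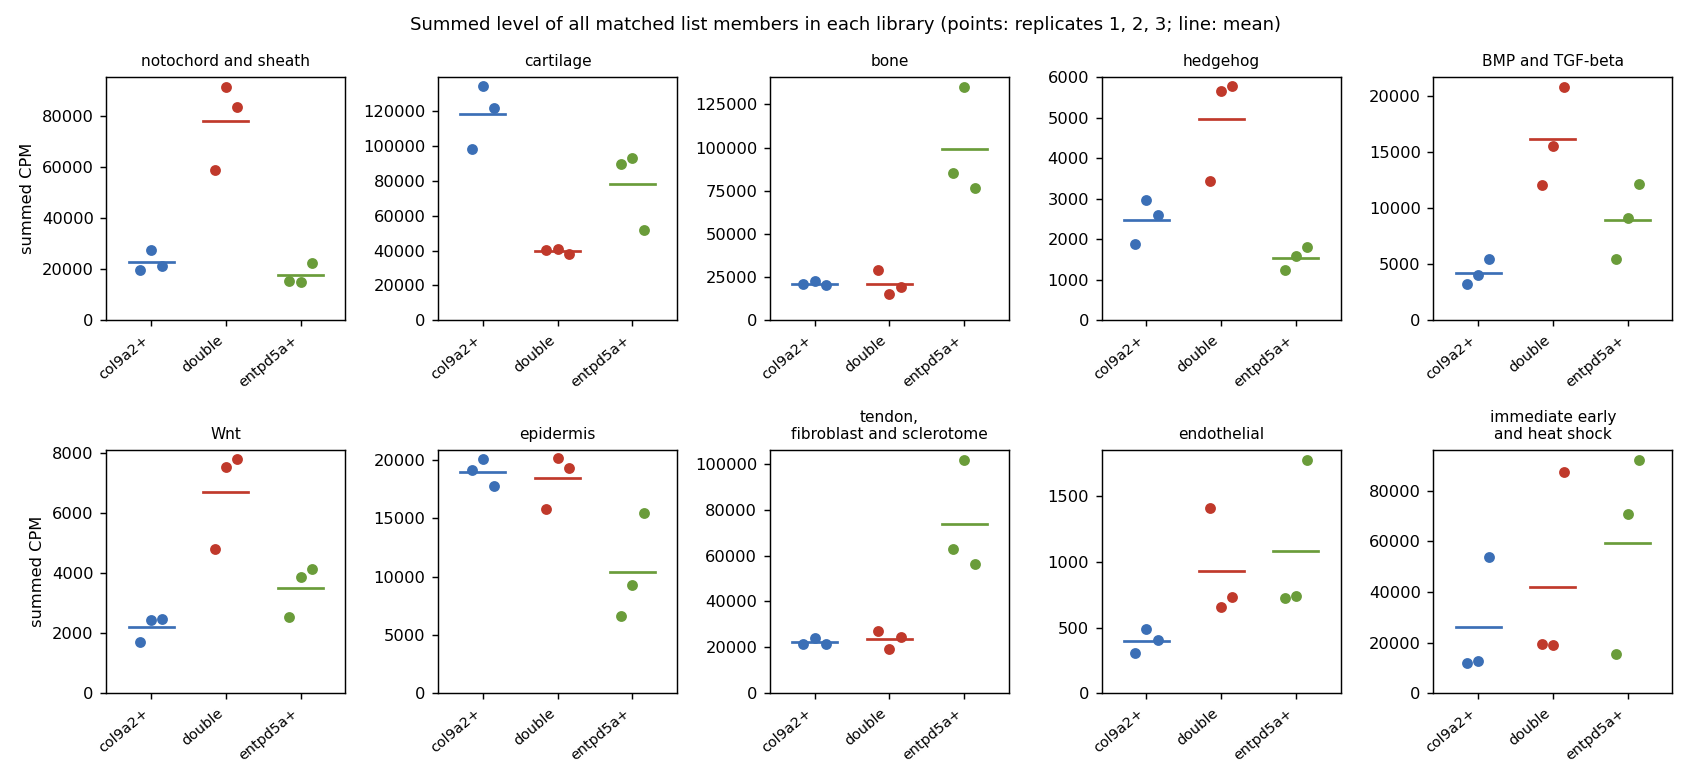
Summed CPM of all matched members of 10 gene lists in each library, a sum in which abundant members weigh most. Points are replicates 1, 2 and 3 and bars are means. The notochord, hedgehog and Wnt sums are higher in every double-positive library than in any other, the BMP sum overlaps with entpd5a+ library 3, the cartilage sum is lowest in double-positive libraries, and the endothelial sum is highest in entpd5a+ library 3, at 1773 CPM, and next in double-positive library 1, at 1406 CPM.

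Other cell types had fewer called genes, and some of those named here were chosen after their values were seen. Of 45 endothelial genes 1 was called higher and 0 lower by edgeR, with 11 higher and 3 lower at an unadjusted p under 0.05 and 4 and 2 called by DESeq2. ESAM, an endothelial adhesion molecule, was the one called, at 58.9, 48.6 and 43.6 CPM in double-positive, 25.9, 37.5 and 29.7 CPM in col9a2+ and 7.63, 12.3 and 10.2 CPM in entpd5a+ libraries. All double-positive libraries were above the rest (log2 difference 1.51 ± 0.25, adjusted p = 0.00887). ESAM was not called above both populations. Of the 45, 0 were, against 0.872% of all genes. The leukocyte and osteoclast list had 1 higher (WAS) and 2 lower (MFAP4, ENSDARG00000038681 and ENSDARG00000038683) of 52, where 3.12% and 1.95% of all genes were called. At an unadjusted p under 0.05 there were 2 higher and 12 lower, and DESeq2 called 2 and 13. The first MFAP4 call ended without col9a2+ library 1 or 2 or any double-positive library, and the second without any of the double-positive libraries. Neural and glial genes had 3 higher (rtn1b, mbpb and mapta) and 3 lower of 52, and 3 and 8 by DESeq2. Those lower were FABP7 (ENSDARG00000007697), SLC1A3 (ENSDARG00000104431) and GLUL (ENSDARG00000099776), while the second ID of each name was not called. Leaving out 1 library ended the call for 6, 8 and 2 of the 9 libraries, double-positive libraries 1 and 2 among them each time, and that of mapta for double-positive library 2. Muscle had 1 higher, PYGM (ENSDARG00000013317), muscle glycogen phosphorylase, and 0 lower of 50, and the second PYGM ID was not called. Erythroid genes had 1 higher (SPTB, a spectrin chain) and 0 lower of 18, and the calls of PYGM and SPTB each ended for 6 of the 9 libraries left out, double-positive libraries 2 and 3 among them. Pigment genes had 0 higher and 3 lower of 28, namely ltk, ATIC and FHL2 (ENSDARG00000042018). The call of ATIC ended whichever library was left out, and that of ltk without double-positive library 2. Muscle, erythroid and pigment had 3, 1 and 1 genes at an unadjusted p under 0.05 in the direction with no call, and 2, 1 and 0 by DESeq2. Over all 19039 genes DESeq2 called 946 higher and 1609 lower. Of the leukocyte markers, ptprc, the pan-leukocyte phosphatase, was at 2.48, 0.0780 and 0.884 CPM in double-positive libraries. The globin gene hbaa1 was at 1.48, 0 and 0 CPM in them. Double-positive library 1 was the highest of all 9 for both, against at most 1.44 CPM (ptprc) and 0.193 CPM (hbaa1) in single-positive libraries. It was not the highest for LCP1, CORO1A, CTSK, ACP5, csf1ra or alas2.

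Among the remaining lists, read against 3.12% and 1.95% of all genes, proteoglycans and mucins had 6 higher and 7 lower of 50, sterol and lipid synthesis 5 and 2 of 55 and glycolysis and hypoxia 4 and 2 of 69. Hox genes had 2 higher, HOXB2 and HOXB5 (ENSDARG00000013057), and 6 lower of 46. The call of HOXB2 ended without col9a2+ library 1 or 2 or double-positive library 1 or 2, and that of HOXB5 without col9a2+ library 1 or double-positive library 1 or 2. The second HOXB5 ID was not called. Caveolae and vacuolated-cell genes had 4 higher and 0 lower of 27, with 0 lower by an unadjusted p under 0.05 and by DESeq2. They were CAV2, cav3, RAB32 (ENSDARG00000029036) and ATP6V0C (ENSDARG00000036577), and the second RAB32 and ATP6V0C IDs were not called. Of the 27, 0 were called above both populations, where 0.872% of all genes were, so so few genes say little. The differences from col9a2+ cells were 0.11 ± 0.41 for CAV2 (edgeR, adjusted p = 0.959) and 1.14 ± 0.54 for cav3 (adjusted p = 0.333). The CAV2 call ended for every library left out but entpd5a+ library 1, and under RLE (adjusted p = 0.0538) and upper-quartile factors (0.0616), and that of ATP6V0C for every library but double-positive library 3. That of cav3 ended without double-positive library 1 or 2, and that of RAB32 without double-positive library 2. Cell cycle genes had 1 higher (birc5b) and 2 lower (mki67 and MCM4) of 73, with a median log2 difference of -0.75. At an unadjusted p under 0.05 there were 1 higher and 21 lower, DESeq2 called 1 and 18, and 13 of the 73 were separated below. The calls of mki67 and MCM4 ended whichever library was left out, and that of birc5b for 5 libraries (col9a2+ 1 and 3, double-positive 1 and 2, entpd5a+ 3). Genes of the unfolded protein response and amino acid stress had 2 and 0 of 45, with 4 lower at an unadjusted p under 0.05. DESeq2 called 3 of them lower, where it called 1609 of all 19039 genes lower. The immediate early and heat shock list, which separated the deeper libraries, had 0 and 1 (SERPINH1, ENSDARG00000075954, the collagen chaperone, lost without double-positive library 2) of 59, with 2 higher at an unadjusted p under 0.05 and 1 by DESeq2. No cytosolic ribosomal protein gene of 77 and no mitochondrially encoded gene of 13 was called by edgeR or by DESeq2, and 0 of either had an unadjusted p under 0.05. Within the Hox list the genes below included hoxa9b, at 4.65, 2.05 and 4.05 CPM against 18.7, 10.3 and 13.5 CPM in col9a2+ and 15.7, 18.1 and 17.5 CPM in entpd5a+ cells, a call lost without double-positive library 2.

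The 22 genes called higher with a double-positive mean between the single-positive means were genes low in 1 population. They included col4a6, a basement membrane collagen IV chain, at 76.6, 85.4 and 74.5 CPM in double-positive, 88.2, 129 and 111 CPM in col9a2+ and 11.7, 10.5 and 7.34 CPM in entpd5a+ libraries. The double-positive libraries were below the col9a2+ libraries and far above the entpd5a+ libraries (log2 difference 1.26 ± 0.24, edgeR adjusted p = 0.015, lost without double-positive library 2). LOXL3 (ENSDARG00000076306), a lysyl oxidase-like gene, had the same order, at 28.8, 33.1 and 49.0 CPM in double-positive, 35.4, 62.7 and 71.7 CPM in col9a2+ and 2.32, 0.786 and 1.67 CPM in entpd5a+ libraries (log2 difference 1.96 ± 0.37, adjusted p = 0.0144). The 4 genes called lower and between included RDH10, ITPR3 and BTK. RDH10 (ENSDARG00000058730), the retinol dehydrogenase that begins retinoic acid synthesis, was at 10.1, 18.3 and 26.0 CPM in double-positive, 598, 743 and 442 CPM in col9a2+ and 18.5, 8.36 and 10.03 CPM in entpd5a+ libraries. It was high in col9a2+ cells alone, and the double-positive and entpd5a+ libraries overlapped (log2 difference -2.24 ± 0.44, adjusted p = 0.0178, lost without double-positive library 1 or 2). For such genes the log2 average departs from both populations, and a call in the contrast does not place the double-positive cells outside them.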

How the data were processed

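Gene expression was measured by RNA sequencing of 9 libraries from sorted notochord sheath cells. The authors deposited 1 file of raw counts per library, with a row for each Ensembl gene. The submitters' processing notes name HISAT2, HTSeq and the build GRCz10. Versions, annotation and strand setting are not given in the sources used here. Each file held 32266 IDs, of which 26433 (81.92%) had a symbol in the name table. Symbols often come without their paralog letter, so an ID is printed wherever a symbol is not unique. Reads shared between paralogs were not traced.

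The deposited counts went into edgeR 4.0.16 (R 4.3.3). Genes passing filterByExpr on the 3 populations (19039) were scaled with TMM factors (0.836 to 1.17) and fitted with a quasi-likelihood model with robust dispersion over all 9 libraries. The contrast set double-positive cells against the log2 average of both other populations, with a two-sided F test and Benjamini-Hochberg adjustment over all genes, and genes under 0.05 were called. The same fit gave the comparison with each population. Each standard error is the log2 difference over the root of its F value. CPM values use the TMM factors. The common dispersion was 0.588. Library totals were 39955994 to 81471212 counts, and amplified reads are not independent molecules. The standard errors also hold the spread between libraries.

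Named genes were the sort genes, the 12 per direction farthest from both populations with at least 20 CPM, and up to 4 members per list and direction, called and separated, by adjusted p. Other list members and the genes of the last part were added after their values were seen. The gene lists (33) and the separation rule were chosen with earlier results of these data known. Of the list entries, 548 matched a symbol exactly, 565 in another case, 444 without the paralog letter and 126 not at all.

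Alternatives were other scaling factors and count filters, DESeq2 1.42.0, a minimum fold of 1.5, each library left out, the replicate block, a term for the 4 deeper libraries, the deeper or the 5 shallower libraries alone, a linear average of the single-positive means, and a margin of 1.5-fold between the nearest libraries. No sequences were used here, so the planned search of promoters was not run.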

Additional observations from a re-analysis of the deposited data

How the results depend on the processing

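In the order called higher, called lower, called and separated above, called and separated below, above both populations and below both, the main counts were 594, 371, 478, 307, 166 and 128. RLE factors, upper-quartile factors, library totals alone, no count filter and a mean of at least 10 CPM kept all of these within 1.5 times. DESeq2 gave 946, 1609, 662, 809, 355 and 618, and called 473 of the 478 and 305 of the 307. A minimum fold of 1.5 gave 380, 232, 332, 200, 103 and 86. The replicate block gave 848, 576, 565, 379, 263 and 199. A term for the 4 deeper libraries gave 968, 749, 613, 454, 341 and 257. The 5 shallower libraries alone gave 447, 264, 417, 263, 80 and 96, and the 4 deeper alone 0 for all, where col9a2+ and double-positive cells have 1 library each, assumed to vary like the entpd5a+ pair. Leaving out a library gave 282 to 580, 131 to 426, 256 to 479, 128 to 411, 62 to 156 and 54 to 198.

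Separated genes, 1015 above and 953 below, were 524 and 540 at a mean of at least 10 CPM, 3033 and 3313 in the 5 shallower libraries and 5661 and 5690 in the 4 deeper, where fewer libraries have to be separated. Library totals alone gave 752 above and 1128 below. With a library left out they numbered 1130 to 1739 above and 1104 to 1711 below. With at least 1.5-fold between the nearest libraries 372 and 447 remained, of which 301 and 225 were called.

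Of 148 named genes 145 were called, and 81 kept the call whichever library was left out. Calls were lost for all 145 in the 4 deeper libraries, 48 in the 5 shallower, 26 at a minimum fold of 1.5, 7 with no count filter, 4 with library totals, 2 with either RLE or upper-quartile factors and 1 under the replicate block, and for 0 with DESeq2 or the depth term. The linear average moved 20 differences by more than their standard error. The difference of COL9A2 (-0.08), which was not called, ranged from -0.28 without entpd5a+ library 3 to 0.65 without entpd5a+ library 1. It reversed to 0.0018 without col9a2+ library 2, 0.16 without double-positive library 1, 0.11 under the replicate block and 0.82 in the 4 deeper libraries. The difference of mt-atp8 (-0.32), not called, ranged from -0.49 without entpd5a+ library 3 to 0.077 without entpd5a+ library 1, and was 0.33 in the 4 deeper libraries. The causes were not tested.

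Same-numbered libraries were checked for shared deviations from their population means. The correlation across genes was 0.181, 0.219 and 0.332 between col9a2+ and double-positive, 0.205, -0.106 and 0.198 between col9a2+ and entpd5a+, and 0.13, -0.103 and 0.148 between double-positive and entpd5a+ libraries. Every col9a2+ and double-positive library correlated best with its own number in the other of these populations, as a hint from the data only, but entpd5a+ library 2 correlated more with number 3 of both. Since 2 of the values are below 0 and nothing in the labels ties the numbers to a shared animal or day, the numbers were not taken to pair the samples, and the replicate block is an alternative only.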

Other observations

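Genes outside the lists also stood apart, and those named here were chosen after their values were seen. Among guidance genes, SLIT3, a secreted guidance cue, was at 759, 1057 and 1014 CPM in double-positive, 18.5, 53.9 and 52.3 CPM in col9a2+ and 165, 185 and 151 CPM in entpd5a+ libraries (log2 difference 3.50 ± 0.37, edgeR adjusted p = 0.00129), and SEMA3D, a secreted semaphorin, rose by 2.51 ± 0.35 on the log2 scale (adjusted p = 0.00401). Growth factors did so too. HBEGF, an EGF-receptor ligand, was at 532, 504 and 446 CPM in double-positive, 22.5, 46.9 and 30.2 CPM in col9a2+ and 23.6, 23.1 and 106 CPM in entpd5a+ libraries. pdgfba, a PDGF chain, was at 701, 854 and 594 CPM in double-positive, 20.2, 68.8 and 25.5 CPM in col9a2+ and 33.5, 33.7 and 144 CPM in entpd5a+ libraries. Entpd5a+ library 3 was the highest single-positive library for both, and their log2 differences were 3.59 ± 0.50 (adjusted p = 0.00398) and 3.79 ± 0.56 (adjusted p = 0.00522). IGFBP3, which binds insulin-like growth factors, was at 965, 1759 and 2071 CPM in double-positive, 65.2, 111 and 50.3 CPM in col9a2+ and 442, 474 and 383 CPM in entpd5a+ libraries (log2 difference 3.14 ± 0.37, adjusted p = 0.002). C1QTNF12, a secreted C1q and TNF-related protein, was at 729, 1286 and 993 CPM in double-positive, 44.0, 120.0 and 87.4 CPM in col9a2+ and 42.8, 25.8 and 45.1 CPM in entpd5a+ libraries (log2 difference 4.15 ± 0.39, adjusted p = 0.00114). f13a1b, a transglutaminase of the coagulation factor XIII family, was at 1666, 1561 and 1870.5 CPM in double-positive libraries (log2 difference 3.03 ± 0.45, adjusted p = 0.00559).

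The enzymes of amino acid breakdown named here fell. TAT, tyrosine aminotransferase, was at 8.34, 12.6 and 41.6 CPM in double-positive, 814, 843 and 737 CPM in col9a2+ and 144, 60.8 and 97.4 CPM in entpd5a+ libraries. HGD, which acts later in tyrosine breakdown, was at 7.07, 16.9 and 27.9 CPM in double-positive, 453, 577 and 366 CPM in col9a2+ and 184, 47.0 and 57.0 CPM in entpd5a+ libraries. Both were highest in col9a2+ cells and lowest in double-positive cells without overlap, with log2 differences of -3.77 ± 0.62 (edgeR, adjusted p = 0.00829, and -4.76 without double-positive library 3) and -3.61 ± 0.64 (adjusted p = 0.0121, lost without double-positive library 2). The difference of TAT from entpd5a+ cells was not called (edgeR, adjusted p = 0.056). BHMT, which passes a methyl group from betaine to homocysteine, was at 30.2, 16.8 and 47.8 CPM in double-positive, 511, 441 and 327 CPM in col9a2+ and 179.7, 119 and 126 CPM in entpd5a+ libraries (log2 difference -2.96 ± 0.42, adjusted p = 0.00443). In the other direction slc38a5b, an amino acid transporter gene, was among the most abundant genes above, at 5233, 11311 and 8393 CPM in double-positive, 1163, 3126 and 1910.0 CPM in col9a2+ and 943, 635 and 961 CPM in entpd5a+ libraries (log2 difference 2.65 ± 0.43, adjusted p = 0.00809). Its difference from col9a2+ cells was not called (edgeR, adjusted p = 0.0778). lratb.1, a paralog of the retinol-esterifying lratb.2, was at 2323, 3378 and 1679 CPM in double-positive, 19.3, 97.6 and 21.0 CPM in col9a2+ and 139, 98.6 and 251 CPM in entpd5a+ libraries (log2 difference 4.83 ± 0.59, adjusted p = 0.00267, and 5.42 without col9a2+ library 2); reads shared between these paralogs were not traced.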
